A study of Mus musculus with 6 samples.

Results

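The genes that make, bind, sense and clear retinoic acid were read in whole ovaries of C57BL/6 mice at 16.5 days post-coitus (dpc), as the rows of the deposited gene table whose symbols belong to a fixed set of 10 genes out of 54532. The set holds *Aldh1a1*, *Aldh1a2* and *Aldh1a3* for synthesis, *Crabp1* and *Crabp2* for binding in the cell, *Rara*, *Rarb* and *Rarg* for the receptors, and *Cyp26a1* and *Cyp26b1* for breakdown, and all 10 were found once each. The 6 libraries were 3 Ctrl, which the labels call wild type, and 3 cKO, the conditional knockout of *Srsf1*, in which the *Stra8-GFPCre* transgene deletes floxed exons of this splicing factor in germ cells from about the start of meiosis. The labels say no more of the Ctrl genotype, and how many ovaries went into a library was not stated, so p-values measure the spread between these libraries. Levels are given as FPKM, the fragments on a gene scaled for the length of the gene and the size of the library, which allows levels to be compared between genes.

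Retinoic acid is made from vitamin A in successive steps, in which retinol is oxidized to retinaldehyde and retinaldehyde is oxidized to retinoic acid by the enzymes of the *Aldh1a* genes. Inside the cell it is carried by the CRABP proteins, it acts through RAR receptors that bind DNA together with RXR partners, and it is removed by hydroxylases of the CYP26 family. In the fetal ovary it is known as a signal for the entry of germ cells into meiosis, where *Stra8* and *Meiosin* are its best-known responsive genes, and in the fetal testis CYP26B1 is known to keep it away from germ cells. At 16.5 dpc most germ cells of the ovary have already entered meiotic prophase.

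The receptors bind DNA at retinoic acid response elements, often a pair of 6-letter motifs in the same direction with 5 bases between them. Coordinates are on GRCm38 (mm10) throughout. The 300 bases around gene starts in the RefSeq table of GRCm38.p6 (250 before and 50 after the start) were searched on both strands for pairs, with 5 bases between, of the motif AGGTCA, of its close variant GGGTCA, of the further variant AGTTCA and of the last variant searched, GGTTCA. Any combination of these was taken. Pairs with 1 or 2 bases between were searched in the same way. They were found in 0 promoters of the 10 genes, beside 0.222% (1 base) and 0.268% (2 bases) of all promoters. Of the 10 genes, 8 had promoter sequences, 13 in all. A pair with 5 bases between was found in 2 of them, *Rarb* and *Cyp26a1*, beside 0.0974% of all 32851 promoters. A match is a description of letters and not a measured binding site. Both promoters are shown because the genes are textbook readouts of the signal, 5′ to 3′ along the strand of the gene, with the pair in capitals. The first lies at chr14:16575427-16575726 on the minus strand, with the pair at 53 to 37 bases before the RefSeq start. This start is inside the span listed for *Rarb*, 16430839 to 16819156, and not at either end of it. The second lies at chr19:37697558-37697857 on the plus strand, with the pair at 32 to 16 bases before the start and read on the opposite strand.
*Rarb*: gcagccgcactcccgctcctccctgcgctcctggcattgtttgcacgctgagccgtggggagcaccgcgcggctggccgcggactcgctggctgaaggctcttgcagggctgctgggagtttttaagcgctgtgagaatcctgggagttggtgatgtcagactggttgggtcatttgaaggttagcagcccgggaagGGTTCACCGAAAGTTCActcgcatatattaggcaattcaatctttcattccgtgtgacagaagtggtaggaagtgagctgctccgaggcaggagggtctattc
*Cyp26a1*: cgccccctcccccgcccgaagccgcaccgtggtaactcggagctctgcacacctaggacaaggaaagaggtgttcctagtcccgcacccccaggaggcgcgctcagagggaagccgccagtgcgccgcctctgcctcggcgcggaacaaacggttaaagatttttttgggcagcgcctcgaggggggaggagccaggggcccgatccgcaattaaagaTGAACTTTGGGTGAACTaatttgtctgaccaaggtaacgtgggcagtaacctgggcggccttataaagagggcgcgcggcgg

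Depth, tissue and genotype were checked first. Between 14212164 and 16784241 reads fell on genes in each library. *Srsf1* was at 71.2 ± 8.61 FPKM (SD, n = 3) in Ctrl and 35.3 ± 2.49 in cKO, with no overlap between the groups. The ovarian pregranulosa marker *Foxl2* was between 47.5 and 74.6 FPKM in all libraries. The protocol text of the labels names retina. Of 10 retina markers, however, 9 were below 1 FPKM in every library, *Crx* was listed at 0 in all 6, and *Opn1sw* alone reached 1 FPKM in any library. The 7 germ cell markers summed to 114, 223 and 418 FPKM in Ctrl 1, 2 and 3. In cKO 1, 2 and 3 they summed to 474, 200 and 545 FPKM, so Ctrl 1 and cKO 2 had the lowest sums of their groups. Of the 7 germ cell markers, 1 passed the unadjusted limit of the limma fit used below as higher in cKO, where 2.68% of all genes tested did. This was *Dazl*, with a log2 fold change of 1.6 (unadjusted p = 0.0345, adjusted p = 0.978 in limma) and groups that overlapped. *Dazl* alone gave 219 of the 545 FPKM in cKO 3 and 80.0 of the 418 FPKM in Ctrl 3. In RNA of whole ovaries, fewer cells of a type and less RNA per cell cannot be told apart.

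The effect of the deletion was read from a two-sided limma fit of log2(FPKM + 1) over the 17180 genes with a mean of at least 0.5 FPKM. In this set were 8 of the 10 genes, while *Rarb* and *Cyp26a1* were too low to be tested. At the unadjusted limit of p below 0.05 used in the study, 0 of the 8 passed, and 0 passed under limma voom on reads recovered from the FPKM values, whereas 4.43% of all genes tested passed in limma. At a Benjamini-Hochberg adjusted p below 0.05, 0 genes of the table passed in limma and 0 under voom, beside 761 at the unadjusted limit in limma and, under voom, 350 higher and 343 lower. Without Ctrl 1, 4 genes passed the adjusted limit in limma. The unadjusted p of the 8 genes was between 0.177 and 0.977 and the adjusted p between 0.978 and 0.999. The groups overlapped in all 10 genes, where 8.68% of the genes tested had groups with no overlap. The log2 fold changes of the 8 genes lay between -0.21 and 0.22, with a median of 0.03, beside -0.01 over all genes tested. Their 95% intervals are limits on the scale of log2(FPKM + 1), where the fold of a low gene comes out too small. On this scale the lowest limit of the 8 was -0.79 (*Aldh1a3*) and the highest was 0.64 (*Aldh1a1*).

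**Figure D1:**
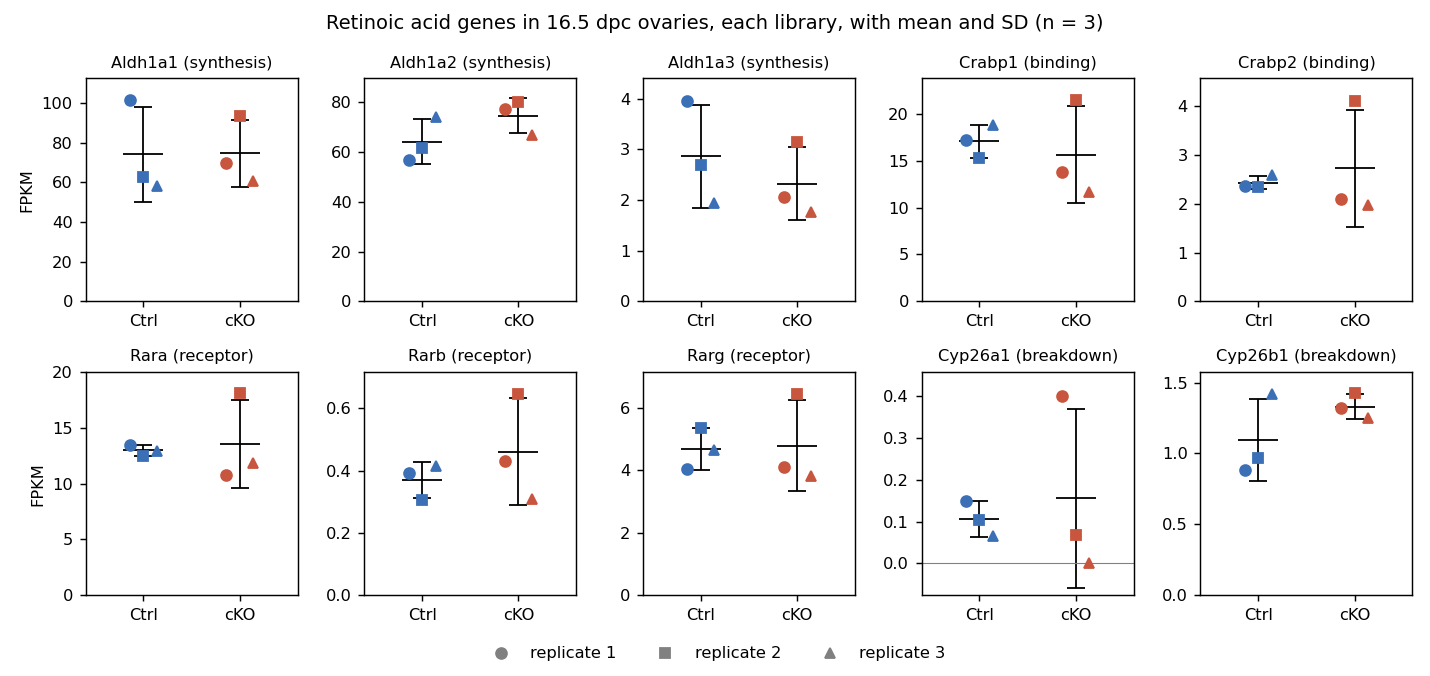
FPKM of each of the 10 genes (y axis of each panel, starting at or below 0) in the 3 Ctrl (blue) and 3 cKO (red) libraries, with the mean and SD as black bars. The groups overlap in all 10 panels, and the red square of cKO 2 is the highest point in 7 of them. In the panel of *Cyp26b1* it exceeds Ctrl 3 only just.

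Of the synthesis genes, *Aldh1a1* and *Aldh1a2* were expressed at about the same high level, and neither differed between cKO and Ctrl beyond the spread. *Aldh1a1* (chromosome 19, 20492715 to 20643462), the retinaldehyde dehydrogenase that is also known from the adult eye and liver, was at 101, 62.8 and 57.9 FPKM in Ctrl 1, 2 and 3, and in the same order at 69.6, 93.4 and 60.9 FPKM in cKO 1, 2 and 3. Ctrl 1 and cKO 2 were the high libraries, and the group means of 74.1 ± 23.9 and 74.6 ± 16.9 (SD, n = 3 each) were almost equal. The log2 fold change was 0.03 (standard error 0.26, 95% interval -0.58 to 0.64, adjusted p = 0.995 in limma).

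*Aldh1a2* (chromosome 9, 71215789 to 71296243), the enzyme that makes most of the retinoic acid of the early embryo, was at 56.9, 61.8 and 74.1 FPKM in Ctrl and 77.2, 80.0 and 66.7 FPKM in cKO. It was higher in cKO 1 and 2 than in any Ctrl library, but cKO 3 lay below Ctrl 3. Its mean was 16.2% higher in cKO, the smallest unadjusted p of the set (log2 fold change 0.22, standard error 0.14, 95% interval -0.13 to 0.56, p = 0.177 in limma, p = 0.2 in the exact permutation test, two-sided). *Aldh1a3* (chromosome 7, 66390890 to 66427517), the third enzyme of the group, was low, at 3.96, 2.69 and 1.95 FPKM in Ctrl and 2.06, 3.15 and 1.77 FPKM in cKO. As for *Aldh1a1*, Ctrl 1 and cKO 2 were the highest libraries of their groups (log2 fold change -0.21, standard error 0.24, adjusted p = 0.982 in limma).

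The balance of the synthesis genes varied more from library to library than between the groups. *Aldh1a1* took 62.5%, 49.3% and 43.2% of the summed *Aldh1a* FPKM in the Ctrl libraries, in order, and 46.7%, 52.9% and 47.1% in the cKO libraries. *Aldh1a2* exceeded *Aldh1a1* in 3 of the 6 libraries, Ctrl 3, cKO 1 and cKO 3, which are also the 3 libraries with the highest sums of germ cell markers. This order was seen after the fact and whether germ cell content plays a part in it was not tested. *Aldh1a3* never took more than 2.44% of the sum.

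**Figure D2:**
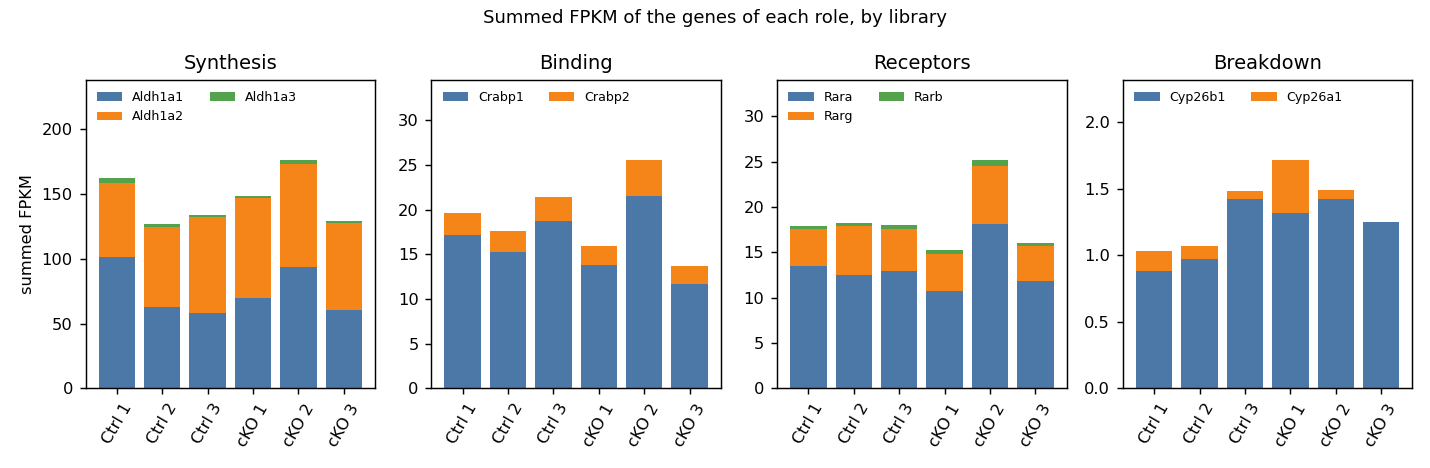
Summed FPKM (y axis, starting at 0) of the synthesis, binding, receptor and breakdown genes in each of the 6 libraries, with each gene as a coloured segment. Synthesis sums of 127 to 177 FPKM stand above breakdown sums of 1.04 to 1.72 FPKM in every library, and cKO 2 has the tallest synthesis, binding and receptor bars.

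Of the genes that bind retinoic acid in the cell, *Crabp1* (chromosome 9, 54764748 to 54773110) was the higher. Ctrl libraries held 17.2, 15.2 and 18.8 FPKM of it, and cKO libraries 13.8, 21.5 and 11.7 FPKM. cKO 1 and 3 lay below all Ctrl libraries while cKO 2 lay above all of them, so that the 95% interval of the log2 fold change was wide, from -0.69 to 0.37 around -0.16 (adjusted p = 0.985 in limma). Without cKO 2 the log2 fold change of *Crabp1* was -0.40 with an unadjusted p of 0.0283 in limma, the 1 call among the 8 genes in that fit, in which 6.03% of all genes tested passed as lower in cKO. *Crabp2* (chromosome 3, 87948666 to 87953376), which is known to hand retinoic acid to its nuclear receptors, was at 2.37, 2.34 and 2.60 FPKM in Ctrl and 2.10, 4.10 and 1.97 FPKM in cKO. It had the same order of libraries as *Crabp1* in cKO, with 37 to 91 reads per library and a log2 fold change of 0.07 (standard error 0.23). *Crabp1* was 5.23 to 7.26 times as high as *Crabp2*, and the 3 Ctrl ratios did not all lie above the 3 cKO ratios.

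Among the receptors, *Rara* led in every library. *Rara* (chromosome 11, 98927818 to 98974942) encodes the broadly expressed receptor, and its FPKM of 13.5, 12.5 and 12.9 in Ctrl was even, while it was 10.7, 18.1 and 11.9 in cKO. The 3 Ctrl values fell inside the cKO range (log2 fold change 0.03, standard error 0.19, 95% interval -0.43 to 0.49). *Rarg* (chromosome 15, 102234938 to 102257517), the receptor known from skin and cartilage, was at 4.04, 5.36 and 4.65 FPKM in Ctrl and 4.10, 6.46 and 3.82 FPKM in cKO. Again cKO 2 was the highest library, cKO 1 was just above the lowest Ctrl library and cKO 3 was below it (log2 fold change 0.01, standard error 0.20).

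Transcription of *Rarb* (chromosome 14, 16430839 to 16819156) is a classical response to retinoic acid, and the promoter shown above lies inside this span. The deposited FPKM is for the whole gene, so it cannot be assigned to that start. *Rarb* was at 0.39, 0.31 and 0.41 FPKM in Ctrl and 0.43, 0.65 and 0.31 FPKM in cKO. These values rest on 95 reads in Ctrl and 115 in cKO, a ratio per library size of 1.27 with an exact 95% interval of 0.958 to 1.68 for counting error alone. Exons of *Rarb* overlap those of *Top2b* on the other strand, which was between 14.9 and 23.8 FPKM. The use of strand in counting was not stated, so reads of the stretch shared by both genes cannot be assigned with certainty. Of the summed receptor FPKM, *Rara* took 68.8% to 75.3%, *Rarg* 22.5% to 29.5% and *Rarb* 1.68% to 2.82% over the 6 libraries.

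The breakdown genes were both low. *Cyp26b1* (chromosome 6, 84571414 to 84593908) was at 0.88, 0.97 and 1.42 FPKM in Ctrl and 1.32, 1.43 and 1.25 FPKM in cKO, from 71 to 133 reads per library. The cKO libraries lay close together at the upper end of the Ctrl range, with a log2 fold change of 0.16 (standard error 0.16, 95% interval -0.21 to 0.54, adjusted p = 0.978 in limma). *Cyp26a1* (chromosome 19, 37697808 to 37701528), which has the other promoter shown above and is switched on by retinoic acid in many tissues, was covered by 4, 3 and 2 reads in the Ctrl libraries and by 11, 2 and 0 reads in the cKO libraries. At this depth no difference could be seen, as the ratio of 13 to 9 reads per library size was 1.51 with an exact 95% interval of 0.598 to 4.01 for counting error alone. A count of 0 in cKO 3 allows up to 3 reads.

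Ordered by mean FPKM over the 6 libraries, the set ran from *Aldh1a1* (74.3) and *Aldh1a2* (69.5) over *Crabp1* (16.4), *Rara* (13.3), *Rarg* (4.74), *Aldh1a3* (2.60), *Crabp2* (2.58), *Cyp26b1* (1.21) and *Rarb* (0.42) to *Cyp26a1* (0.13). Neighbours whose Ctrl ranges overlapped were *Aldh1a1* with *Aldh1a2* and *Aldh1a3* with *Crabp2*, so their order is not larger than the spread. *Crabp1* was above *Rara* in 5 of the 6 libraries, cKO 3 being the exception. The summed *Aldh1a* FPKM was 157, 118 and 90.1 times the summed *Cyp26* FPKM in the Ctrl libraries and 86.6, 118 and 103 times in the cKO libraries. The ratios of the groups overlapped.

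The largest deviation shared by the genes was that of a single library. cKO 2 had the highest FPKM of the 6 libraries for 7 of the 10 genes, *Aldh1a2*, *Crabp1*, *Crabp2*, *Rara*, *Rarb*, *Rarg* and *Cyp26b1*. Among the 8 genes tested these were 6, where 22.3% of all genes tested were highest there. For *Cyp26b1*, cKO 2 and Ctrl 3 were almost equal, at 1.425 and 1.423 FPKM from 128 and 133 reads. In cKO 2, 5 of the 7 pregranulosa markers were at their highest. These markers summed to 473 FPKM there, beside 315 and 345 in the other cKO libraries and 330 to 388 in Ctrl. All 7 germ cell markers were lower in cKO 2 than in the other cKO libraries. Their sum was 200 FPKM in cKO 2 but lower still, 114 FPKM, in Ctrl 1. In Ctrl 1, *Aldh1a2* and *Cyp26b1* were at their lowest of the 6 libraries, and *Aldh1a1* and *Aldh1a3* at their highest. Whether cell content has a part in the levels of the retinoic acid genes was not tested. With all libraries, 6 of the 8 genes tested had a log2 fold change above 0, and without cKO 2 only *Aldh1a2* and *Cyp26b1* had one. The log2 fold changes of *Aldh1a1* (-0.14), *Crabp2* (-0.18), *Rara* (-0.18) and *Rarg* (-0.19) were then below 0, and the median of the 8 was -0.18, beside -0.02 over all genes in that fit.

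**Figure D3:**
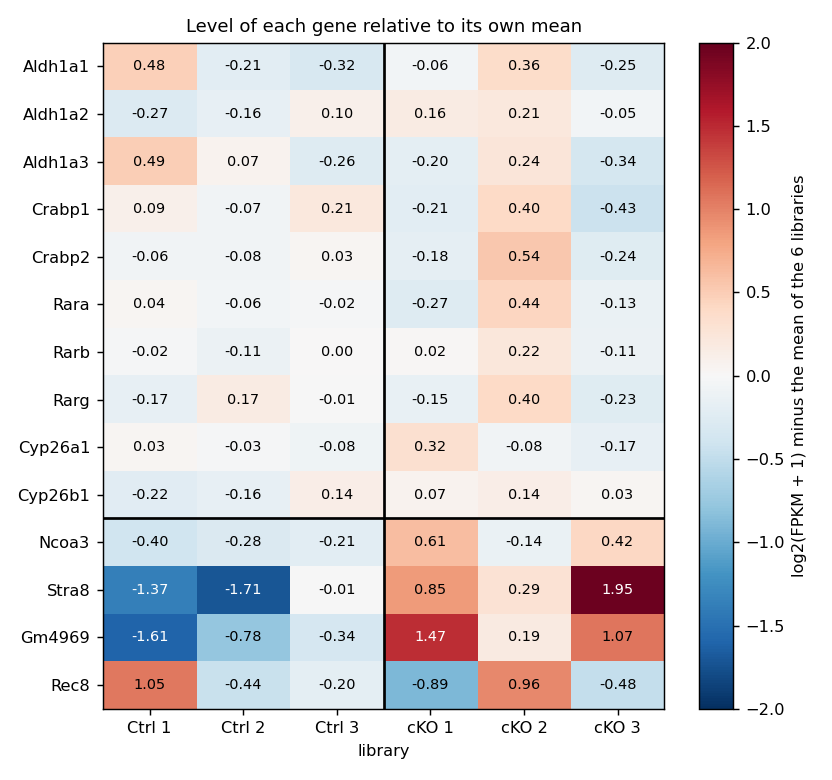
Log2(FPKM + 1) of each gene minus its own mean over the 6 libraries (colour and printed number), with the 10 genes above the horizontal line and 4 other genes of the pathway below it. The values of cKO 2 are above 0 for 9 of the 10 genes, while *Stra8* and *Gm4969* are higher in every cKO library than in any Ctrl library.

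The profiles over the 6 libraries were compared among the 8 tested genes, as a description. The root mean square difference between centred log2(FPKM + 1) values was smallest for *Aldh1a2* and *Cyp26b1* (0.06), an enzyme of synthesis and one of breakdown, and next for *Crabp2* and *Rara* (0.08). This difference depends on the size of the deviations as well as their order, and the deviations of a low gene such as *Cyp26b1* come out too small. Nearness did not follow role in every pair. Pairs of the same role were at 0.14 for *Crabp1* and *Crabp2*, 0.14 for *Rara* and *Rarg* and 0.14 for *Aldh1a1* and *Aldh1a3*. *Aldh1a1* and *Aldh1a2*, however, were at 0.38, while *Crabp2* and *Rarg*, of different roles, were at 0.12. The difference was largest for *Aldh1a2* and *Aldh1a3* (0.41), which act in the same step. Among all genes tested, the nearest to *Aldh1a2*, the member with the smallest p, were *Mrpl55* (0.03), *Pdcd5* (0.04) and *Acot7* (0.04).

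Around this core, 40 other genes of the pathway were read from a list of retinol supply, carriers, other breakdown enzymes, receptor partners, coregulators and responsive genes. Of these, 29 were tested, 3 were higher in cKO at the unadjusted limit, where 2.68% of all genes tested were, and 0 were lower, where 1.75% were. The list was chosen with earlier results of these data known, and 2 of the 3 were *Stra8* and *Gm4969*. The share of the list is therefore a description and cannot test the pathway. Groups with no overlap were seen in 4 of all 40 genes, tested or not, where 8.68% of all genes tested had such groups. The median log2 fold change of the 29 tested genes was -0.01. Upstream of the *Aldh1a* enzymes, 0 of the 10 tested genes of retinol supply and oxidation passed in limma. *Rdh10*, which makes the first oxidation step in embryos, was at 10.3 ± 1.73 FPKM (SD, n = 3) in Ctrl and 10.8 ± 0.147 in cKO. *Dhrs3*, which turns retinaldehyde back into retinol, was at 24.4 ± 1.61 FPKM in Ctrl and 26.1 ± 10.1 in cKO. The largest difference of this group, that of *Adh1* (log2 fold change -0.54, standard error 0.29, unadjusted p = 0.105 in limma), did not pass.

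Of the 9 receptor partners and coregulators tested, 1 passed as higher in cKO, where 2.68% of all genes tested did. *Ncoa3* (chromosome 2, 165992636 to 166073242), a coactivator of nuclear receptors, was at 8.40, 9.20 and 9.77 FPKM in Ctrl and 18.0, 10.3 and 15.6 FPKM in cKO. All cKO libraries were above all Ctrl libraries, but cKO 2 only just. The log2 fold change was 0.60 (standard error 0.20, unadjusted p = 0.0230 and adjusted p = 0.978 in limma), and the unadjusted p was between 0.0566 and 0.0751 without Ctrl 1, Ctrl 2, cKO 1 or cKO 3. Exons of *Ncoa3* overlap those of *Sulf2* on the other strand, which was higher, between 40.1 and 51.5 FPKM. The partner receptors *Rxra* (16.7 ± 1.46 FPKM in Ctrl and 16.1 ± 4.25 in cKO) and *Rxrb* (21.2 ± 2.24 and 17.7 ± 4.88) did not pass. *Rxrg* had at most 12 reads in a library and was not tested.

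Of the 9 responsive genes tested, 2 passed as higher in cKO, where 2.68% of all genes tested did. Both are genes of meiotic initiation. *Stra8* was at 2.96, 2.12 and 9.21 FPKM in Ctrl and 17.5, 11.6 and 38.7 FPKM in cKO (log2 fold change 2.06, standard error 0.56, unadjusted p = 0.00796, adjusted p = 0.978 in limma). *Gm4969*, which is *Meiosin*, was at 9.0, 16.8 and 23.1 FPKM in Ctrl and 83.7, 33.7 and 63.1 FPKM in cKO (log2 fold change 1.82, standard error 0.42, unadjusted p = 0.00361). Both passed with each of the 6 libraries left out in turn. The sums of germ cell markers, given above, were lowest in Ctrl 1 and highest in cKO 3, while *Stra8* was lowest in Ctrl 2 and highest in cKO 3 and *Gm4969* was lowest in Ctrl 1 and highest in cKO 1. The order of the sums rests in part on *Dazl*, at 219 FPKM in cKO 3. Of the other markers, *Mael* and *Figla* were highest in Ctrl 3, *Tex101* in cKO 1, and *Ddx4*, *Sycp3* and *Dppa5a* in cKO 3. The Cre transgene that cKO mice carry is named after *Stra8*. The part of germ cell content or of the transgene in these values was not tested. *Rec8*, a meiotic cohesin also known to respond to retinoic acid, was at 50.7, 17.4 and 20.8 FPKM in Ctrl and 12.4, 47.5 and 17.0 FPKM in cKO. Here Ctrl 1 and cKO 2 were the high libraries, although they had the lowest sums of germ cell markers of their groups. The log2 fold change of *Rec8* was -0.27 (standard error 0.56), turning to 0.18 without Ctrl 1 and 0.10 without cKO 1. The other 6 responsive genes tested, among them *Msx1* (log2 fold change 0.31, unadjusted p = 0.167 in limma), did not pass.

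**Figure D4:**
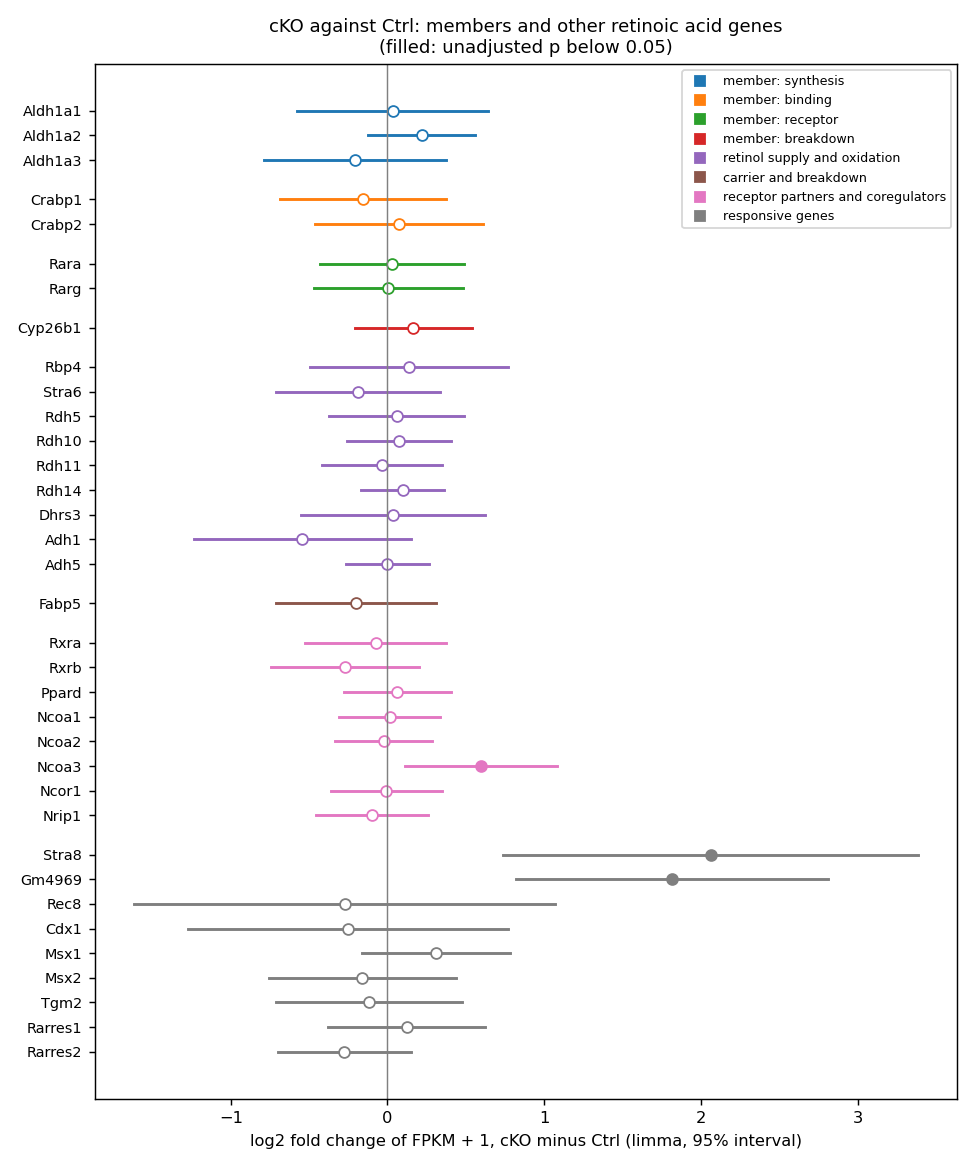
Log2 fold change of FPKM + 1, cKO minus Ctrl, with the 95% interval of limma (x axis) for the 8 tested genes of the set and the tested genes of the wider pathway that are reported here (y axis), coloured by role. Filled circles mark an unadjusted p below 0.05, which *Ncoa3*, *Stra8* and *Gm4969* reach, while the intervals of all 8 genes of the set include 0.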

How the data were processed

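Total RNA of ovaries at 16.5 dpc was sequenced after poly-T selection in 6 libraries, 3 Ctrl and 3 cKO, grouped by the sample titles. Per the labels the build was mm10 (GRCm38) and the aligner HISAT2 2.0.5. From featureCounts output the authors made the deposited FPKM values, which are reads divided by gene length and library size. The annotation release was not stated. Turned back into reads, 100% of the values above 0 were whole numbers to within 0.05. No library pair held identical values.

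limma 3.58.1 in R 4.3.3 was fitted to log2(FPKM + 1) of genes whose FPKM averaged 0.5 or more, with an intensity trend, group as the only term and Benjamini-Hochberg adjustment over all genes tested, and was tested on simulated data. On this scale the fold of a low gene comes out too small. Single genes were compared with an exact permutation test (smallest p = 0.1). Named genes are the 10 members, *Srsf1*, pathway genes past the limit, *Stra8*, *Gm4969*, *Rec8*, the 3 genes nearest to the member with the smallest p, and markers. Other genes of the pathway list and the neighbours *Top2b* and *Sulf2* were added after their values were seen. Some genes of the pathway list enter its counts but are not reported here by name. The members and lists were chosen with earlier results of these data known. Gene positions were taken from the deposited table, overlaps come from GENCODE M21 and promoters from RefSeq. The alternatives were other pseudocounts (0.1, 0.5), other minimum levels, median-ratio scaling, quantile normalization, voom, no trend, a replicate block, protein-coding genes alone and each library left out in turn. Tables and figures were made with Python 3.11.15, pandas 2.3.3, scipy 1.17.1 and matplotlib 3.10.9.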

Additional observations from a re-analysis of the deposited data

How the results depend on the processing

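None of the 8 tested members passed the unadjusted limit under any change of pseudocount, minimum level, scaling, variance model or gene set, or with the replicate block. With 1 library left out the number of members past the limit was between 0 and 1, the call being *Crabp1* without cKO 2. Since these log2 fold changes are near 0, several changed sign with single libraries left out, with ranges of -0.14 to 0.28 for *Aldh1a1* (below 0 without Ctrl 2, Ctrl 3 or cKO 2), -0.40 to 0.017 for *Crabp1* (above 0 without cKO 3), -0.18 to 0.21 for *Crabp2* and -0.18 to 0.17 for *Rara* (below 0 without cKO 2), -0.19 to 0.12 for *Rarg* (below 0 without Ctrl 1 or cKO 2) and -0.82 to 0.18 for *Rec8* (above 0 without Ctrl 1 or cKO 1). Under voom *Rarg* was at -0.0088. At a pseudocount of 0.1 *Rarb* was at 0.22, and with 1 library left out it was between -0.0021 and 0.16. *Cyp26b1* was at 0.29 both with a pseudocount of 0.1 and under voom, beside 0.16 in the main fit. Of the wider pathway list, 2 to 3 genes were higher and 0 to 3 were lower with 1 library left out, with 3 without cKO 2 and 1 (*Adh1*) without cKO 3, and 1 (*Bco1*) was lower with no minimum level. Over all genes, 201 (without Ctrl 2) to 1457 (without cKO 2) were higher and 163 (without Ctrl 2) to 1036 (without cKO 2) were lower, beside 460 and 301 with all libraries and 736 and 595 with no minimum level. Higher genes also fell to 243 without Ctrl 1, 230 without cKO 1 and 239 without cKO 3, while lower genes were 628 without Ctrl 3 and 185 without cKO 3. The cause of these shifts was not tested.

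No pairing by the replicate numbers of the labels was seen. The correlations of deviations from the group means, taken over genes, were -0.39, -0.03 and 0.12 for pairs 1, 2 and 3. Not every library correlated best with its own number. With 3 libraries in each group these correlations depend on each other, so they cannot exclude a pairing. With the replicate block the log2 fold changes were those of the unblocked fit, and 434 genes were higher and 247 lower. For *Stra8*, *Gm4969*, *Ncoa3* and *Rec8*, in order, the unadjusted p in limma was then 2.8e-05, 0.00847, 0.0340 and 0.680. It was 0.00796, 0.00361, 0.0230 and 0.643 in the main fit. With 23 to 57 reads per library on *Rarb* and 0 to 11 on *Cyp26a1*, depth limits what can be said of both.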

Other observations

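The pair of motifs with 5 bases between that was found at *Rarb* and *Cyp26a1* was present in RefSeq promoters of 31 genes, of which 18 were matched by symbol in the deposited table and only 4 were high enough to be tested. These were *Blvrb* (log2 fold change -1.14), *Cfap45* (-0.02), *Ppbp* (0.58) and *Hbb-y* (2.10), genes of haem breakdown, cilia, platelets and embryonic globin. *Hbb-y* passed the unadjusted limit in limma, where 2.68% of all genes tested passed as higher in cKO. It is 1 of 7 red blood cell markers, of which the other 6 had a log2 fold change below 0. These markers summed to 22981, 7800 and 4857 FPKM in Ctrl 1, 2 and 3 and to 1697, 10412 and 9831 FPKM in cKO 1, 2 and 3. Whether blood content has a part in the values of these genes was not tested.

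Of the 7 mesonephros and duct markers, *Gata3* was lower in all cKO libraries than in all Ctrl libraries (log2 fold change -0.58, unadjusted p = 0.00960 in limma), and its exons overlap those of other genes. It was the 1 of 5 tested that passed as lower, where 1.75% of all genes tested did. The defining marker *Pax2* stayed at 0.22 FPKM or below in every library, from 8 to 20 reads, and was not tested. *Pax2* went the other way, at 0.10, 0.11 and 0.12 FPKM in Ctrl and 0.18, 0.22 and 0.17 FPKM in cKO. Thus 2 of the 7 markers had groups with no overlap, in opposite directions, where 8.68% of all genes tested had such groups. *Pax8* was between 1.47 and 3.47 FPKM, and *Emx2*, which the gonad also expresses, was between 34.9 and 54.3 FPKM. The mesonephros is known as a source of retinoic acid beside the fetal gonad.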
